A study of Mus musculus with 8 samples.

Results

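A set of 10 genes of prostanoid signalling was followed in mouse lung: the cyclooxygenases Ptgs1 and Ptgs2, the terminal synthases Ptgis, Tbxas1 and Ptges, the receptors Ptgir, Tbxa2r, Ptger2 and Ptger4, and the degrading enzyme Hpgd. They were chosen by symbol, and all 10 had 1 row each among the 15728 genes of the deposited table. The knockout samples were 4 libraries from mice labelled triply n/i/eNOSs-/-, bred without any of the nitric oxide synthases (neuronal, inducible and endothelial). The comparison samples were 4 libraries from wild type mice. Both groups were labelled as C57BL/6J in background, 4 weeks old and not exposed to any agent, and lung was the tissue sampled. Lung RNA was profiled by CAGE (cap analysis of gene expression), which reads the capped 5′ ends of transcripts. A transcript therefore gives the same number of ends whatever its length. Values are counts per 1000000 reads (CPM).

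Prostanoids are made from arachidonate that phospholipases free from membranes. Cyclooxygenases turn arachidonate into a common endoperoxide, from which terminal synthases make prostacyclin, thromboxane or the E, D and F prostaglandins. Prostacyclin from the vessel wall relaxes vascular smooth muscle and restrains platelets, as nitric oxide does, whereas thromboxane constricts vessels and activates platelets. The lung is known as a main site of prostaglandin clearance, which begins with the dehydrogenase encoded by Hpgd.

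Among the prostanoid genes, Ptgs2, the inducible cyclooxygenase gene, was higher and Hpgd was lower in the knockout lungs. The other 8 genes, including prostacyclin synthase and every receptor, did not pass the test. Ptgs2 averaged 14.1 ± 5.24 CPM in knockout and 6.25 ± 0.32 CPM in wild type (SD, n = 4 each). Hpgd averaged 636 ± 43.9 CPM in knockout and 802 ± 30.4 CPM in wild type. All 10 genes passed the filter of at least 1 CPM in at least 4 libraries. A gene was called at a Benjamini-Hochberg adjusted p under 0.05 in a limma fit of log2(CPM + 0.5) across 14065 genes. Of those genes, 30.9% were called in either direction, so 2 of 10 is not more than the share over all genes. On recovered reads, edgeR and DESeq2 each called 2 of the 10, against 32.5% of all genes by edgeR and 31.7% by DESeq2. The share called was 16.6% for higher and 14.3% for lower values in the knockout. The median absolute log2 difference was 0.22 over the 10 genes and 0.19 over all genes tested.

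The DNA at the annotated starts of both called genes is shown because CAGE reads lie at transcript starts. Each window runs from 150 bases before to 30 bases after the RefSeq start (build GRCm38.p6, plus strand), and capitals mark matches to the motifs searched.
Ptgs2, chr1:150099881-150100060: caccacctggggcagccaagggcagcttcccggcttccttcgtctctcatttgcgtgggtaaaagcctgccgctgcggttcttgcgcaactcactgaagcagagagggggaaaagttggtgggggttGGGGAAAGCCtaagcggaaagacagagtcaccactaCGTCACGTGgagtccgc
Hpgd, chr8:56294402-56294581: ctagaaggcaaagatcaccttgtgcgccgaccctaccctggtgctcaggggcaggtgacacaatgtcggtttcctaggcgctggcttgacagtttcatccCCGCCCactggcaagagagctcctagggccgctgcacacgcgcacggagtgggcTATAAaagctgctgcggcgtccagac
In Ptgs2 the first match in capitals is to a loose pattern for the NF-kB decamer, taken here as GGG, any 5 letters and CC. Because 5 letters are free, a match need not be an NF-kB site. The second run holds, on the minus strand, TGACG, the core letters of a cAMP response element. They overlap by 2 letters the E-box CACGTG, the element that clock activators bind. In Hpgd the matches are to the GC box GGGCGG, on the minus strand, and to TATAA, the core letters of a TATA box. The TATAA of Hpgd begins at base 5 after the annotated start. In Ptgs2, TGACG and CACGTG begin at bases 14 and 17 after it, so all 3 lie downstream of the annotated starts shown. Where the CAGE reads of these genes began was not determined. The starts in use may differ from the annotated ones, and the place of these letters relative to them is not known. Searched on both strands of 32851 promoter windows of the same length, the loose NF-kB pattern was found in 39.4%, GGGCGG in 31.0%, TATAA in 15.6% and TGACG in 15.6%. CACGTG was rarer, at 5.09%. The E-box was found in the Ptgs2 window and in none of the other windows of these genes. TGACG was also in a Tbxa2r window, and TATAA in that of Tbxas1. GGGCGG was found for 5 of the genes and the loose NF-kB pattern for 4, most of them not called. Of the 7 motifs searched, the full cAMP response element TGACGTCA was found for none of the genes. Windows were on hand for 9 of the 10 genes, without Ptgis. These matches describe the letters of the windows only.

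Nos3, the endothelial synthase gene that the knockout targets, stood at 5.56 to 8.83 CPM in knockout libraries and at 18.2 to 22.8 CPM in wild type libraries. The position of its reads relative to the deletion was not determined here, which makes this a weak check of the labels. Nos1 and Nos2 were not analysed here. Library totals, recovered from the CPM steps, were 13014134 to 15096188 reads in knockout and 15598154 to 18593913 reads in wild type. The Ensembl identifiers and chromosomes of the 10 genes follow with their values. The deposited table holds no coordinates.

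Ptgs1 (ENSMUSG00000047250, chromosome 2) encodes the constitutive cyclooxygenase. It had 43.9, 59.8, 57.9 and 53.8 CPM in knockout replicates 1 to 4, against 57.5, 52.2, 52.1 and 45.5 CPM in wild type replicates 1 to 4. The 4 knockout values enclosed all wild type values. The log2 difference was 0.05 (95% interval -0.18 to 0.28, limma adjusted p = 0.75), and it turned to -0.0044 without knockout replicate 2 and to -0.012 without wild type replicate 4.

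Ptgs2 (ENSMUSG00000032487, chromosome 1) encodes the cyclooxygenase that cytokines, growth factors and other stimuli induce. It had 16.6, 6.76, 18.8 and 14.1 CPM in knockout replicates 1 to 4, against 5.86, 6.62, 6.35 and 6.15 CPM in wild type replicates 1 to 4. Replicates 1, 3 and 4 of the knockout were thus well above the narrow range of wild type, and replicate 2 was just above its highest value. Knockout replicate 2 rested on 100 reads, whose exact Poisson 95% interval of 5.50 to 8.22 CPM covered all 4 wild type values. Ptgs2 rose by 1.02 on the log2 scale (SE 0.245, 95% interval 0.48 to 1.56, limma adjusted p = 0.00948), a 2.03-fold difference. Without knockout replicate 2 the log2 difference was 1.33 (limma adjusted p = 3.55e-05). The coefficient of variation of Ptgs2 was 37.2% in knockout and 5.14% in wild type. Wild type libraries had 96 to 123 reads of Ptgs2, and the exact Poisson 95% interval of each covered all 4 wild type values. That of wild type replicate 1, for example, was 4.76 to 7.14 CPM. The wild type spread is thus within counting error and may understate the spread between animals.

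The ratio of Ptgs2 to Ptgs1 within a library does not depend on the library total. It was 0.378, 0.113, 0.325 and 0.263 in knockout replicates 1 to 4, against 0.102, 0.127, 0.122 and 0.135 in wild type replicates 1 to 4. Knockout replicate 2 lay within the wild type range of this ratio, and the other 3 knockout libraries lay above it. Ptgs1 gave more reads than Ptgs2 in each of the 8 libraries.

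Ptgs2 is itself an immediate early gene, and 10 other genes of that kind were summed beside it. Their sum was 402, 336, 353 and 315 CPM in knockout replicates 1 to 4, against 254 to 296 CPM in wild type, with no overlap. Dusp1, a phosphatase gene that stimuli induce, rose to 175 to 212 CPM in knockout, against 114 to 147 CPM in wild type (log2 difference 0.58, limma adjusted p = 0.00102), and overlaps the listed gene Ergic1. It was the highest of these genes, and the one called gene that fell was Junb. The remaining 8, Fos and Egr1 among them, were not called by limma or edgeR, and DESeq2 called Fos (adjusted p = 0.0484). Without Dusp1 the sum was 138 to 190 CPM in knockout and 132 to 166 CPM in wild type, with overlap. The median log2 difference of the 10 was 0.26, against 0.01 for all genes tested, and 4 had an unadjusted p under 0.05 in limma. Genes of neutrophils, which can also make Ptgs2, summed to 219 to 436 CPM in knockout and 258 to 389 CPM in wild type, and 0 of 8 tested were called by limma, with 2 at an unadjusted p under 0.05 and 1 called by edgeR and 1 by DESeq2. The part of either in the Ptgs2 difference was not tested.

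The 2 genes most like Ptgs2 were taken by the smallest root mean square difference of centred log2(CPM + 0.5) over the 8 libraries, out of 3966 genes within 2-fold of its mean level. Areg, the epidermal growth factor receptor ligand amphiregulin, came first at a distance of 0.32. It had 28.7, 8.18, 22.3 and 18.6 CPM in knockout replicates 1 to 4, against 13.4, 13.2, 10.7 and 12.2 CPM in wild type replicates 1 to 4. Knockout replicate 2 was thus the lowest of all 8 libraries for Areg. Areg was not called with all libraries (log2 difference 0.50, limma adjusted p = 0.208) and was called without knockout replicate 2 (0.86, limma adjusted p = 0.00182). Gpnmb, a glycoprotein gene of macrophages, came next at a distance of 0.32 and had 11.8 to 17.4 CPM in knockout and 5.2 to 7.8 CPM in wild type.

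Ptgis (ENSMUSG00000017969, chromosome 2) encodes prostacyclin synthase. It had 83.2, 84.8, 93.3 and 78.8 CPM in knockout replicates 1 to 4, against 80.6, 87.8, 95.4 and 96.5 CPM in wild type replicates 1 to 4. The genotypes overlapped over most of their range. The log2 difference of -0.08 had a 95% interval of -0.25 to 0.09 (limma adjusted p = 0.44), or 0.841-fold to 1.06-fold.

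Tbxas1 (ENSMUSG00000029925, chromosome 6) encodes thromboxane synthase, known in platelets and macrophages. It had 4.11, 3.31, 4.90 and 3.30 CPM in knockout replicates 1 to 4, against 3.29, 2.42, 2.89 and 2.69 CPM in wild type replicates 1 to 4. The lowest knockout value was 3.30 CPM and the highest wild type value 3.29 CPM, a gap of less than 1 read between the genotypes. With Ptgs2 and Hpgd, that made 3 of 10 genes without overlap, against 31.2% of all genes tested. The log2 difference was 0.40 (SE 0.148, limma adjusted p = 0.0623; unadjusted p = 0.021), short of the call. With replicate number as a block the limma adjusted p was 0.0489.

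Tbxas1 overlaps the gene Hipk2 on the opposite strand, and the use of strand in counting is not given. Hipk2 averaged 42.4 ± 8.33 CPM in knockout and 52.5 ± 6.82 CPM in wild type. No platelet gene was called higher. The platelet sum was 60.9 to 83.4 CPM in knockout and 74.9 to 85.6 CPM in wild type, and 3 of 6 tested fell with 0 higher. Ppbp, the platelet basic protein gene, fell to 1.46 to 4.00 CPM in knockout, against 6.41 to 8.12 CPM in wild type (limma adjusted p = 0.00403). Pf4, the platelet factor gene that gave most of these reads, averaged 58.0 CPM in knockout and 54.7 CPM in wild type. Without Pf4 the platelet sum was 11.5 to 20.8 CPM in knockout and 25.2 to 27.9 CPM in wild type. Of 8 alveolar macrophage genes, 2 rose with 0 lower, the scavenger receptor gene Marco and the ribonuclease gene Ear2. Of 10 genes listed for monocytes and interstitial macrophages 2, Csf1r and C1qc, rose and 1, the lysozyme gene Lyz2, fell. The macrophage sums were 628 to 816 CPM in knockout and 692 to 834 CPM in wild type for alveolar macrophages. For the list of monocytes and interstitial macrophages they were 4774 to 5278 CPM in knockout and 6621 to 7455 CPM in wild type. Most of that came from Lyz2, so this sum is mainly the level of 1 gene. Without Lyz2 that sum was 1437 to 1651 CPM in knockout and 1585 to 1848 CPM in wild type, with overlap. Most of that remainder was Apoe, at 1114 to 1354 CPM in knockout and 1315 to 1590 CPM in wild type. Limma did not call Apoe (adjusted p = 0.0856), and DESeq2 called it lower (adjusted p = 0.0367). Csf1r averaged 42.1 CPM in knockout and 33.4 CPM in wild type, and C1qc 84.6 CPM in knockout and 66.1 CPM in wild type. The list's median log2 difference was 0.19. Without its most abundant gene, Chi3l3, the alveolar macrophage sum was 475 to 518 CPM in knockout and 418 to 461 CPM in wild type. What part these cells have in the Tbxas1 values was not tested. In whole lung RNA, fewer cells of a type and less RNA per cell cannot be told apart.

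The ratio of Ptgis to Tbxas1, the prostacyclin and thromboxane synthases, was 20.2, 25.6, 19.0 and 23.9 in knockout replicates 1 to 4, against 24.5, 36.3, 33.0 and 35.9 in wild type replicates 1 to 4. Knockout replicate 2 was above wild type replicate 1, and the others did not cross. Tbxas1, the smaller of the pair, had 42 to 71 reads per library.

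Ptges (ENSMUSG00000050737, chromosome 2) encodes the inducible microsomal synthase of prostaglandin E. It had 13.9, 10.8, 10.8 and 11.4 CPM in knockout replicates 1 to 4, against 18.5, 12.9, 12.2 and 12.3 CPM in wild type replicates 1 to 4. Replicate 1 was the highest of its genotype in both groups, and knockout replicate 1 overlapped wild type. The log2 difference of -0.23 (95% interval -0.54 to 0.07, limma adjusted p = 0.228) was -0.09 without wild type replicate 1.

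**Figure D1:**
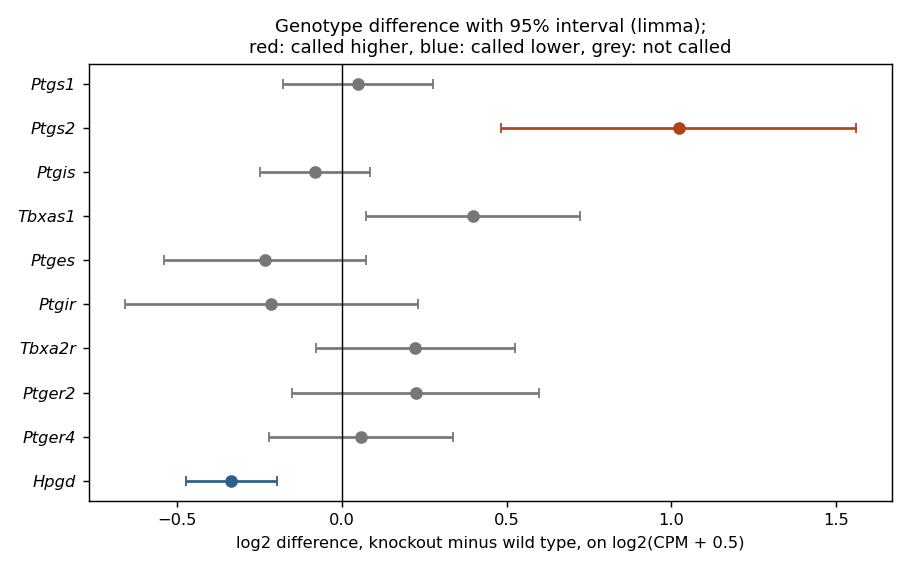
Log2 difference in CPM, knockout minus wild type, of the 10 prostanoid genes with 95% intervals from limma, ordered as synthesis, receptors and breakdown. Ptgs2 (1.02) and Hpgd (-0.34) were called, and the interval of Tbxas1 leaves out 0 before adjustment for the number of genes tested.

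The receptors had lower levels than Ptgis and Ptges. Ptgir (ENSMUSG00000043017, chromosome 7), the prostacyclin receptor gene, had 1.72, 1.56, 1.38 and 0.85 CPM in knockout replicates 1 to 4, against 2.39, 1.40, 1.44 and 1.47 CPM in wild type replicates 1 to 4. Only 11 to 40 reads per library lay behind these values, and the genotypes overlapped. The log2 difference was -0.21 (95% interval -0.66 to 0.23, limma adjusted p = 0.448). It was -0.06 without knockout replicate 4 and -0.07 without wild type replicate 1. A change of up to 0.634-fold or 1.17-fold is within that interval.

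Tbxa2r (ENSMUSG00000034881, chromosome 10), the thromboxane receptor gene, had 2.78, 2.43, 2.35 and 2.38 CPM in knockout replicates 1 to 4, against 1.79, 2.21, 2.48 and 1.80 CPM in wild type replicates 1 to 4. Wild type replicate 3 lay among the knockout values and the other 3 lay below them. The log2 difference was 0.22 (95% interval -0.08 to 0.52, limma adjusted p = 0.242).

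Ptger2 (ENSMUSG00000037759, chromosome 14) and Ptger4 (ENSMUSG00000039942, chromosome 15) encode the receptors EP2 and EP4, through which prostaglandin E raises cAMP. Ptger2 had 3.71, 2.84, 3.52 and 2.38 CPM in knockout replicates 1 to 4, against 2.33, 3.50, 2.25 and 2.31 CPM in wild type replicates 1 to 4. Wild type replicate 2 reached the upper knockout values, so the genotypes overlapped (log2 difference 0.22, limma adjusted p = 0.345). Ptger4 had 11, 9.67, 7.73 and 8.14 CPM in knockout replicates 1 to 4, against 8.85, 9.68, 8.95 and 7.37 CPM in wild type replicates 1 to 4. Its groups overlapped (log2 difference 0.06, limma adjusted p = 0.758), and the sign turned without knockout replicate 1 (-0.031) or wild type replicate 4 (-0.0155). Ttc33, which overlaps Ptger4 on the opposite strand, had 26.1 ± 2.31 CPM in knockout and 30.01 ± 1.09 CPM in wild type.

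Hpgd (ENSMUSG00000031613, chromosome 8) encodes the dehydrogenase that inactivates prostaglandins. It had 576, 678, 656 and 634 CPM in knockout replicates 1 to 4, against 793, 834, 764 and 816 CPM in wild type replicates 1 to 4. Each knockout library was below each wild type library. Hpgd fell by 0.34 on the log2 scale (SE 0.0632, 95% interval -0.47 to -0.20, limma adjusted p = 0.00276), and its mean in knockout was 0.793 of that in wild type. With 8251 to 15510 reads per library, it was the most abundant of the 10 genes and had 132 genes above it in the whole table.

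The summed level of alveolar type 2 cell genes was also lower. It was 47374 to 59199 CPM in knockout and 79425 to 95986 CPM in wild type, most of it from the surfactant gene Sftpc, and 4 of 8 tested fell with 1 higher. Without Sftpc the sum was 10049 to 11532 CPM in knockout and 12540 to 13423 CPM in wild type. The gene that rose was Abca3, the lipid transporter of lamellar bodies, at 313 ± 21.5 CPM in knockout and 165 ± 7.49 CPM in wild type (log2 difference 0.92, limma adjusted p = 2.78e-06). Abca3 overlaps a listed gene on the opposite strand, so its value carries the same doubt about strand as Tbxas1. Endothelial genes summed to 1829 to 1988 CPM in knockout and 1787 to 1949 CPM in wild type, and 3 of 10 rose. Alveolar type 1 genes summed to 7759 to 8586 CPM in knockout and 6906 to 7519 CPM in wild type, with 2 of 7 higher and 2 lower. Hopx, a homeodomain protein gene, made up most of that sum, and without it the sum was 2287 to 2584 CPM in knockout and 2444 to 2679 CPM in wild type, with overlap. Pdpn, the podoplanin gene, fell to 110 ± 13.04 CPM in knockout, against 195 ± 25.7 CPM in wild type (limma adjusted p = 0.000308). Because Sftpc took a smaller share of reads in knockout, a total without Sftpc and Scgb1a1 was also tried, and the log2 difference of Hpgd was then -0.38. The part of these cells in the Hpgd difference was not tested. The ratio of Hpgd to Ptgs1 was 11.3 to 13.1 in knockout and 13.8 to 17.95 in wild type, with no overlap.

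Among 291 genes of like level, those nearest to Hpgd in profile were Ctla2a, a protease inhibitor gene, and Rnase4, a ribonuclease gene, both at a root mean square distance of 0.09. Ctla2a had 522 to 573 CPM in knockout and 609 to 699 CPM in wild type. Rnase4 had 396 to 435 CPM in knockout and 492 to 579 CPM in wild type. Both have a listed copy or neighbour of near-identical 5′ sequence, Ctla2b and Ang, so how reads were divided between them is uncertain.

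In order of level the 10 genes ran from Hpgd through Ptgis, Ptgs1, Ptges, Ptgs2, Ptger4, Tbxas1, Ptger2 and Tbxa2r to Ptgir, by the mean of all 8 libraries. In knockout, Ptgs2 had a higher mean than Ptges, and their libraries overlapped. In wild type every Ptges library was above every Ptgs2 library, and Ptger4 had the higher mean of Ptger4 and Ptgs2. Neighbours whose libraries overlapped in both genotypes were Ptgs2 and Ptger4, Tbxas1 and Ptger2, and Ptger2 and Tbxa2r. Tbxa2r and Ptgir overlapped in wild type and did not in knockout.

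**Figure D2:**
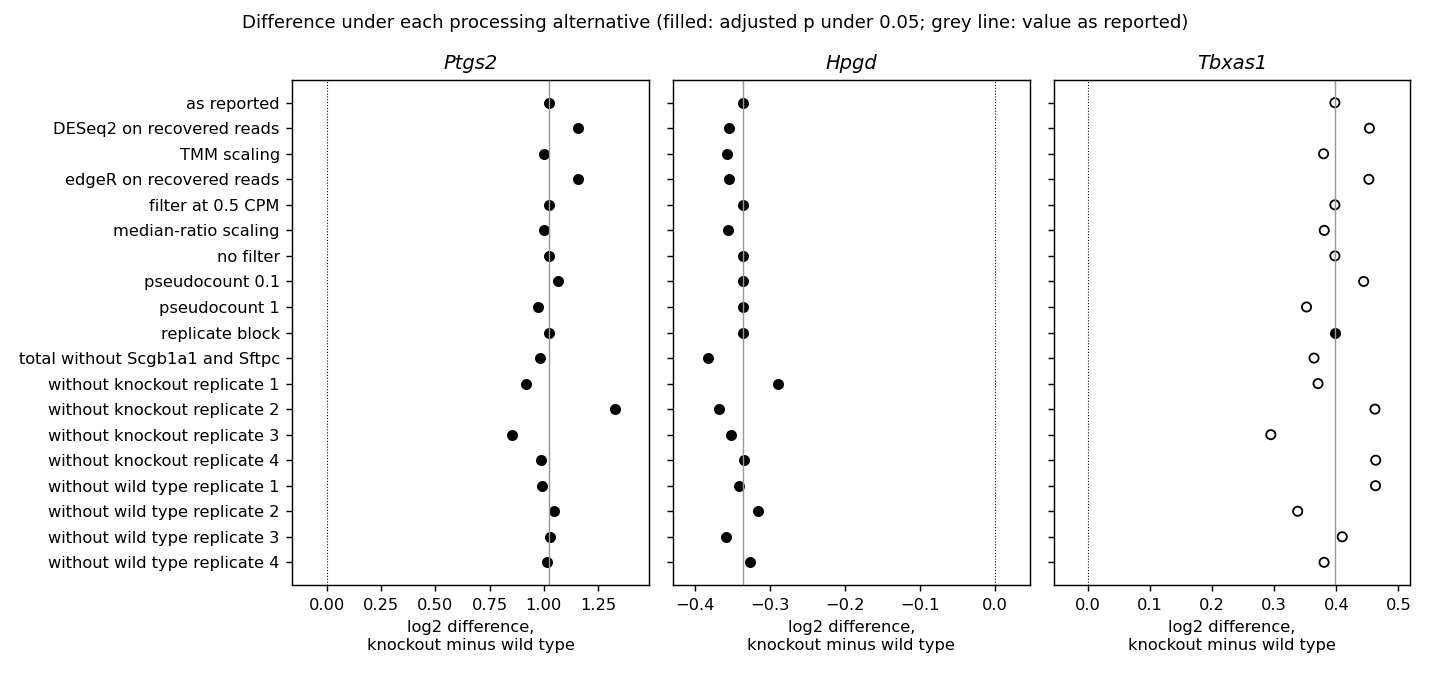
Log2 difference, knockout minus wild type, of Ptgs2, Hpgd and Tbxas1 as reported and under each of 18 alternatives, filled where the adjusted p was under 0.05. Ptgs2 and Hpgd are filled throughout, and Tbxas1 is filled with the replicate block alone.

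The rest of the pathway was read from 7 gene lists. Of 77 genes tested, 6 rose and 10 fell, which is 20.8% and below the 30.9% of all genes. The median log2 difference of the 77 was -0.07, against 0.01 for all genes.

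Arachidonate release held 3 genes that rose and 1 that fell among 12 tested (median -0.06). Pla2g4a, the cytosolic phospholipase that supplies cyclooxygenases, rose to 12.6, 14.0, 14.8 and 12.8 CPM in knockout replicates 1 to 4, against 9.51, 10.5, 11.8 and 9.68 CPM in wild type replicates 1 to 4. The groups did not overlap (log2 difference 0.37, limma adjusted p = 0.0132). The phospholipase C genes Plcb1 and Plcg1 rose as well, by 0.92 and 0.44 on the log2 scale. Plcb1 had 32.3 to 45.2 CPM in knockout and 16.2 to 21.1 CPM in wild type, but the start of some of its transcripts recurs in other listed genes, which makes its value uncertain. Pla2g12a, a secreted phospholipase, fell by 0.33. The call of Plcg1 ended without wild type replicate 1 or 4 (limma adjusted p = 0.0581 and 0.0526).

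Of 6 other synthases tested, 1 fell and 0 rose (median -0.02). Cbr1, a carbonyl reductase that can turn E into F prostaglandins, fell to 44.01 ± 2.46 CPM in knockout, against 53.0 ± 1.53 CPM in wild type (limma adjusted p = 0.00925). Ptges3, the cytosolic prostaglandin E synthase gene, averaged 206 ± 12.2 CPM in knockout and 183 ± 7.65 CPM in wild type (limma adjusted p = 0.0546). DESeq2 called it higher (adjusted p = 0.0213) and edgeR did not (adjusted p = 0.051). Of 4 other receptors tested, 0 were called by limma, edgeR or DESeq2, and 1 had an unadjusted p under 0.05 in limma (median -0.14). Ptgfr, the F prostaglandin receptor gene, averaged 15.6 ± 1.01 CPM in knockout and 18.7 ± 2.15 CPM in wild type.

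Transport and breakdown had 1 gene higher and 2 lower of 7 tested (median 0.08). Abcc4, an efflux pump that carries prostaglandins out of cells, rose to 4.57, 5.54, 4.90 and 4.30 CPM in knockout replicates 1 to 4, against 2.93, 2.96, 3.46 and 2.37 CPM in wild type replicates 1 to 4. The log2 difference was 0.64 (limma adjusted p = 0.00455). Ptgr1, a reductase that acts after Hpgd, fell to 15.2 to 17.4 CPM in knockout, against 18.9 to 21.9 CPM in wild type (log2 difference -0.30, limma adjusted p = 0.016). Slco3a1, a transporter gene, fell by 0.31, a call that ended without any 1 of 6 libraries (knockout replicates 3 and 4 and all of wild type; limma adjusted p = 0.0521 to 0.1). Slco2a1, which takes prostaglandins up for breakdown, averaged 328 ± 29.3 CPM in knockout and 311 ± 32.1 CPM in wild type, with no call.

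**Figure D3:**
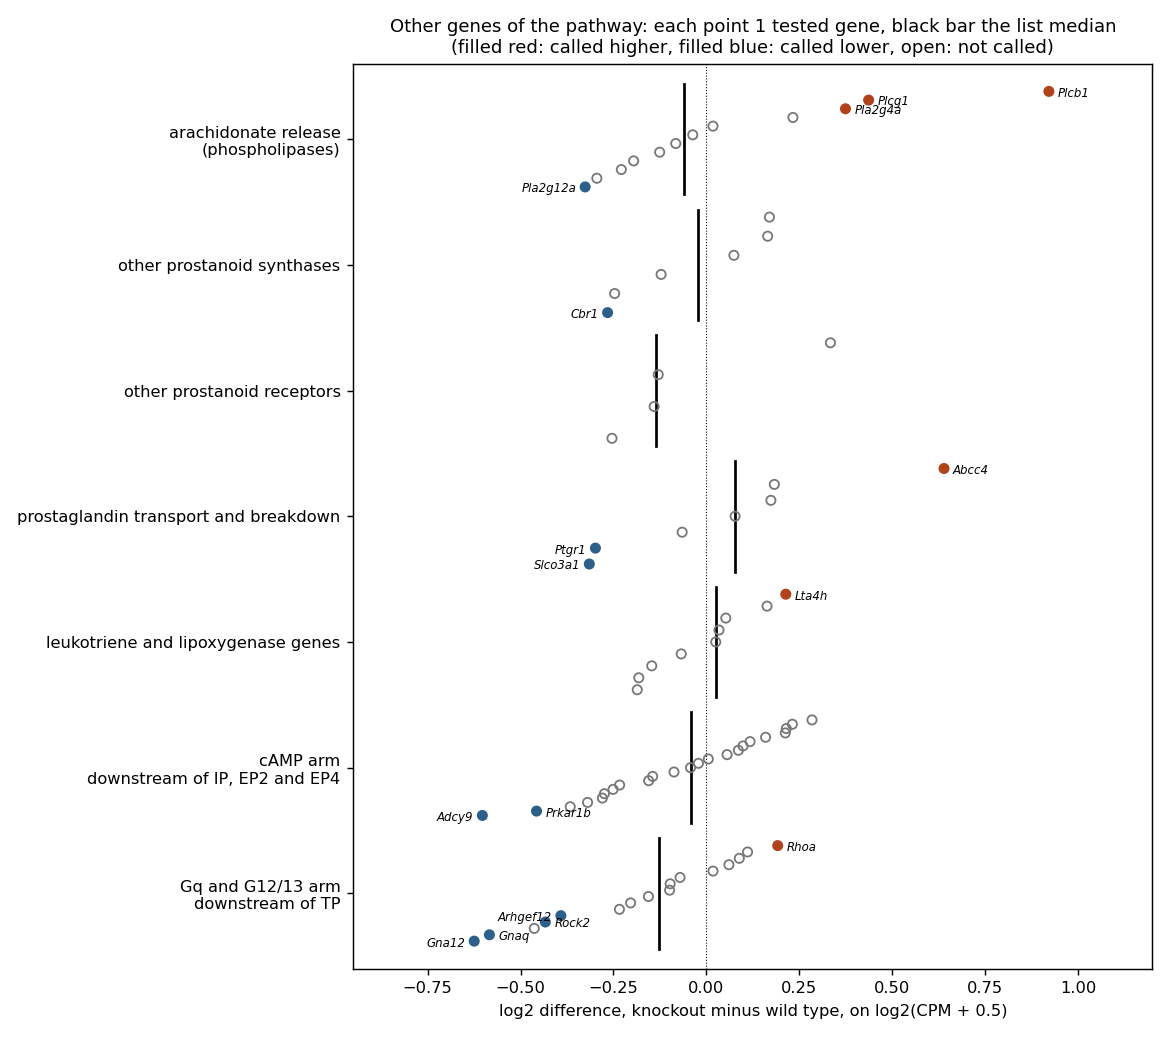
Log2 difference in CPM, knockout minus wild type, of each tested gene in 7 lists of the pathway, with called genes filled and named and the list median as a black bar. Called genes lie on both sides of 0, and list medians run from -0.14 to 0.08.

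Downstream of the receptors, the cAMP arm used by the prostacyclin, EP2 and EP4 receptors had 2 genes lower and 0 higher of 23 tested (median -0.04). Adcy9, an adenylyl cyclase gene, fell to 6.25 ± 1.69 CPM in knockout, against 9.53 ± 1.01 CPM in wild type, and its call ended without wild type replicate 4 (limma adjusted p = 0.0556). Prkar1b, a regulatory subunit of protein kinase A, fell to 14.7 ± 2.22 CPM in knockout, against 20.3 ± 2.26 CPM in wild type. The G protein arm used by the thromboxane receptor had 4 genes lower and 1 higher of 16 tested (median -0.13).

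Gna12 and Gnaq, which encode G protein subunits that couple to that receptor, were among the 4 that fell. Gna12 had 33.1, 36.5, 25.1 and 26.7 CPM in knockout replicates 1 to 4, against 43.6, 43.5, 48.1 and 51.0 CPM in wild type replicates 1 to 4 (limma adjusted p = 0.00249). Gnaq had 14.1 to 19.8 CPM in knockout and 22.5 to 28.7 CPM in wild type (limma adjusted p = 0.00401). Plcg1, Gna12 and Gnaq each overlap a listed gene on the opposite strand, so their values carry the same doubt about strand as Tbxas1. Prkar1b and Adcy9 overlap a listed gene on their own strand, so how reads were divided there is uncertain whether or not strand was used.

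Of 9 leukotriene and lipoxygenase genes tested, the other branch of arachidonate use, 1 rose and 0 fell (median 0.03). Lta4h, the hydrolase that makes leukotriene B, averaged 57.0 ± 4.36 CPM in knockout and 49.0 ± 0.96 CPM in wild type (log2 difference 0.21, limma adjusted p = 0.0339). That call ended without any 1 of 6 libraries, knockout replicates 2 and 4 and all of wild type, and under 2 scalings, with limma adjusted p of 0.0507 to 0.0804. Alox5 and Alox5ap, which begin leukotriene synthesis, were not called.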

How the data were processed

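The values deposited by the authors are CPM with 2 decimals, per the file headers and values, for 15728 genes in 8 lung CAGE libraries, and each column adds up to 1000000 within rounding. BWA 0.7.12-r1039, HISAT2 2.0.5, edgeR and build mm9 are named, per the submitters' processing notes, without role or order. The rule that assigned reads to genes is not stated. Groups come from the labels, which give no sex, litter or batch and do not say that the numbers pair animals.

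The test covered 14065 genes that reached 1 CPM in 4 or more libraries and used log2(CPM + 0.5) in limma 3.58.1 (R 4.3.3, variance trend, genotype the only term), two-sided, with Benjamini-Hochberg adjustment over all of them. The test was checked on simulated reads with the same spread setting for every gene and far fewer changed genes than were called here. That check was not set up to cover shifts of Sftpc and Scgb1a1 in the library totals. Reads were recovered from the CPM steps (100% of values whole within 0.1 reads) for edgeR 4.0.16 and DESeq2 1.42.0 as alternatives. The others were a pseudocount of 0.1 or 1, a filter at 0.5 CPM or none, TMM, median-ratio scaling, a total without Sftpc and Scgb1a1, a replicate block, and each library left out. Over all genes, edgeR called 4573 and DESeq2 4455, against 4351 by limma. Intervals from reads are exact Poisson intervals and cover counting error only, since CAGE reads need not be independent molecules. The replicates are labelled only by number, so p-values measure the spread between these samples.

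The 10 genes, gene lists, cell markers, motifs and tests were chosen with earlier results of these data known. Named besides the 10 were Nos3, up to 4 called genes per pathway list by adjusted p, per cell list the most abundant and the best called gene, and the 2 genes nearest in profile to each called one. Fos, Egr1, Junb, Ptges3, Ptgfr, Slco2a1, Marco, Apoe, Csf1r, C1qc, Tek, Alox5, Alox5ap, Hipk2 and Ttc33 were named after their values were seen. Overlaps and copies (97% identity over 75 nt, blastn 2.17.0) come from GENCODE M21 (GRCm38) and are used for names only. A few genes picked by this rule are left out of the text.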

Additional observations from a re-analysis of the deposited data

Results flagged for a closer look

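A library stood apart from the other 3 of its genotype, by Dixon's test at 95%, in 5 of 106 gene and genotype groups, and chance gives about 1 in 20. For the prostanoid genes it was 3 of 20 groups. Among the prostanoid genes, Ptgir in wild type replicate 1 was 2.39 CPM, against 1.40 to 1.47 CPM in the other wild type libraries. Ptges in wild type replicate 1 was 18.5 CPM, against 12.2 to 12.9 CPM. Ptger2 in wild type replicate 2 was 3.50 CPM, against 2.25 to 2.33 CPM, and without that library its log2 difference was 0.35 (limma adjusted p = 0.142). Dusp1 in knockout replicate 1 was 212 CPM, against 175 to 178 CPM in the other knockout libraries, and its call held without that library (limma adjusted p = 0.0018). Chi3l3, a chitinase-like gene of macrophages with the near-identical copy Chil4, was 131 CPM in knockout replicate 2, against 288 to 315 CPM. Knockout replicate 2 was also the library with the lowest Ptgs2 value of its genotype, which Dixon's test did not single out. Areg was lowest there too, but it was picked for its likeness to Ptgs2 over these same libraries. Its value is therefore no separate sign that this library stands apart.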

How the results depend on the processing

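Of 180 values of the 10 genes under 18 alternatives, 175 kept direction and call. The calls of Ptgs2 and Hpgd held under each, with adjusted p of at most 0.0279 and 0.0102. Their log2 differences over single libraries left out were 0.86 to 1.33 and -0.37 to -0.29, and those of Tbxas1 were 0.29 to 0.46. With the replicate block Tbxas1 was called (log2 difference 0.40, limma adjusted p = 0.0489), so 2 of the genes were called higher in place of 1; the block changed no other call among the 10. The deviations of same-numbered libraries correlated at 0.043, 0.026, -0.0029 and 0.065, so the numbers are not taken to pair animals. Small differences turned sign: Ptgs1 ranged from -0.012 to 0.14 and Ptger4 from -0.031 to 0.13 when 1 library was left out. S100a9, listed for neutrophils, turned to -0.0053 with TMM, -0.0040 with median-ratio scaling and -0.031 with the total lacking Sftpc and Scgb1a1, and ranged from -0.24 to 0.18 when 1 library was left out. Des ranged from -0.072 to 0.064. The cause was not tested. Over all alternatives, 1741 to 2387 genes were called higher and 1552 to 2567 lower, and 4 to 8 and 7 to 15 of the 77 pathway genes. With the total lacking Sftpc and Scgb1a1 the split over all genes was 1862 higher and 2567 lower, against 2341 and 2010. Sums of cell lists without their most abundant gene were added after seeing the data. Of 40 counts over single lists, 19 moved by over 1.5 times under at least 1 alternative. Genes called lower went from 2 to between 1 and 4 in the cAMP list, from 1 to as many as 3 in arachidonate release and from 0 to as many as 2 each in neutrophils and endothelium. Ptgir, at 11 to 40 reads per library, is the gene that depth limits most.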

Other observations

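Marker genes of further lung cell types were read in the same way. Of 8 smooth muscle genes 2 fell, among them the actin-binding protein gene Tagln, which averaged 60.6 CPM in knockout and 88.9 CPM in wild type (limma adjusted p = 0.0025). Tagln overlaps a listed gene on the opposite strand, with the same doubt about strand as Tbxas1. Des, the most abundant, stood at 84.1 CPM in knockout and 84.8 CPM in wild type. Of 9 fibroblast genes 2 rose, among them the growth factor receptor gene Pdgfra (130 CPM in knockout, 92.0 CPM in wild type), and 1 fell; Col1a1 was the most abundant and not called. Of 10 endothelial genes 3 rose, led by the sialomucin gene Emcn (51.6 CPM in knockout, 29.9 CPM in wild type). Cldn5, the claudin gene that was the most abundant, averaged 456 CPM in knockout and 516 CPM in wild type, which limma did not call (adjusted p = 0.0554) and edgeR and DESeq2 called lower (adjusted p = 0.0306 and 0.00948). Tek, a receptor gene, averaged 125 CPM in knockout and 138 CPM in wild type. It was likewise called lower by edgeR and DESeq2 and not in the limma fit as reported. Some limma alternatives, TMM and median-ratio scaling among them, also gave lower calls in the endothelial list.

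Of 5 mesothelial genes 1 fell, Msln, a call that ended without any 1 of 6 libraries (limma adjusted p = 0.0573 to 0.0986), and the start of some Msln transcripts recurs in other listed genes. Upk3b, the most abundant, averaged 134 CPM in knockout and 111 CPM in wild type, which limma did not call (adjusted p = 0.0551) and edgeR and DESeq2 called higher (adjusted p = 0.04996 and 0.0329). The list's median log2 difference was 0.14. Of 3 mast cell genes tested 1 rose, the chymase gene Cma1, also a call that ended without any 1 of 6 libraries (0.0706 to 0.0884). Of 6 pulmonary vein cardiac genes tested, 1 rose and 2 fell. Nppa, the atrial natriuretic peptide gene, was at 0 to 0.14 CPM in knockout and 32.2 to 90.0 CPM in wild type, while Myl7, the most abundant, averaged 248 CPM in knockout and 209 CPM in wild type.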
